A study of Mus musculus with 8 samples.

Results

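The thrombospondins are secreted, calcium-binding glycoproteins that sit in the extracellular matrix, bind integrins and other cell-surface receptors, and regulate adhesion, matrix assembly and growth factor activity. The vertebrate family has subgroup A, whose members THBS1 and THBS2 form trimers and carry type 1 (properdin-like) repeats, and subgroup B, whose members THBS3, THBS4 and COMP form pentamers and lack those repeats. All members share a carboxy-terminal region made of EGF-like modules, calcium-binding type 3 repeats and a globular domain. In the heart, THBS1 is best known as an activator of latent TGF-β and as an inhibitor of angiogenesis, and THBS4 as a matrix protein of stressed muscle that also acts inside the endoplasmic reticulum. Transcripts of the 5 family genes, *Thbs1*, *Thbs2*, *Thbs3*, *Thbs4* and *Comp*, are described here in the ventricles of mouse embryos. They are 5 of the 53465 genes in the table. The family was chosen by *Thbs4*, which had been picked for its strong fall in these same samples, so the difference in *Thbs4* is given as a description without a p-value, and the paralogs were taken with it by name.

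RNA-seq of polyadenylated RNA compared 4 ventricle samples labelled Nrg-1flox;Tie2-Cre (called mutant below) with 4 samples labelled WT, all taken at E9.5. Tie2-Cre removes the floxed gene in endothelial cells, which include the endocardium, and also in much of the blood lineage, and *Nrg1* encodes neuregulin 1, the ligand by which the endocardium signals to the myocardium. The labels give no strain, no allele for the WT samples and nothing on whether a sample is 1 embryo or a pool, so p-values measure only the spread between these samples, which may be technical. The WT libraries held between 11852422 and 14360367 counts, with a median of 13251697, and the mutant libraries between 12430417 and 14223920, with a median of 13192424.

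The labels were checked against *Nrg1* and against tissue markers. *Nrg1* had 156, 131, 121 and 173 counts in WT replicates 1 to 4 and 61, 59, 71 and 72 in mutant replicates 1 to 4 (log2 fold change -1.07 ± 0.141 SE, edgeR adjusted p = 0.00268). Summed cardiomyocyte markers were high in all samples, at 36427 to 38290 CPM (counts scaled to equal library size) in WT and 34162 to 37603 in mutant samples. Hemoglobin genes took 0.671% to 0.799% of counts in WT and 1.93% to 6.26% in mutant samples. Mutant replicate 1 held the most hemoglobin and stood apart from the other mutant samples in several gene lists, and values without it are given beside the calls and levels that depend on it. Across the 14451 genes tested, 1245 (8.62%) had an adjusted p under 0.05, 739 of them (5.11%) higher and 506 (3.5%) lower in mutant samples. Without mutant replicate 1, 2521 genes passed, 1352 of them higher and 1169 lower. Calls below are by edgeR over all samples unless another fit is named.

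The paralogs can be told apart by the 60-base reads. Over aligned coding sequence, identity was highest between *Comp* and *Thbs4* (69.1%) and between *Comp* and *Thbs3* (68.7%), was 67.0% between *Thbs1* and *Thbs2* and 66.9% between *Thbs3* and *Thbs4*, and was 60.5% to 64.7% for the other pairs. The longest identical run between any pair was 26 bases, found once between *Thbs4* and *Comp* and once between *Thbs1* and *Thbs2*. Those runs are shown because they are the longest exact matches between paralogs. Over 60 bases a stretch with a shorter run can be more alike. Each line is 60 bases of spliced coding sequence, 5′ to 3′ (GENCODE M21, GRCm38), with the shared run in capitals.
Thbs4: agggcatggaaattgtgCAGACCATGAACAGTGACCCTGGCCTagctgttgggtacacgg
Comp: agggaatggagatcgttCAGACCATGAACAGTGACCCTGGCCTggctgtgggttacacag
Thbs1: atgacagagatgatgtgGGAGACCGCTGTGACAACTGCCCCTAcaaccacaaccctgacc
Thbs2: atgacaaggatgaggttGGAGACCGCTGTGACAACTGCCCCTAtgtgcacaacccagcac

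The *Thbs4* stretch crosses exons 17 to 19 (chr13:92755277-92756409, minus strand), and that of *Comp* crosses exons 14 to 16 (chr8:70379571-70380113, plus strand). The *Thbs1* stretch lies in exon 15 (chr2:118120876-118120935, plus strand), as does that of *Thbs2* (chr17:14676267-14676326, minus strand). No 60-base window of any family transcript occurred in another family member. *Thbs4*, *Thbs2* and *Comp* had no window in the transcripts of any other gene. *Thbs3* shared 122 of 3131 windows (3.9%) with *Mtx1*, and *Thbs1* shared 74 of 5789 (1.28%) with the non-coding gene *Gm29233*. Both of these partners lie on the opposite strand, and without strand in the counting such reads cannot be assigned to either gene.

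Upstream sequence is shown for the members that had an entry in the RefSeq promoter table (GRCm38.p6). These were *Thbs4*, which was picked for its fall, and *Thbs3* and *Thbs2*, which did not pass the test. *Thbs1* and *Comp* were not matched. Each line gives the 250 bases before the annotated start, on the strand of the gene, 5′ to 3′. Capitals mark the searched letters TATAAA of the TATA box, the E-box letters CANNTG, the core GGAA that ETS factors bind, the letters GATA, and the cyclic AMP response element TGACGTCA, each on either strand.
Thbs4, chr13:92794819-92795068, minus strand: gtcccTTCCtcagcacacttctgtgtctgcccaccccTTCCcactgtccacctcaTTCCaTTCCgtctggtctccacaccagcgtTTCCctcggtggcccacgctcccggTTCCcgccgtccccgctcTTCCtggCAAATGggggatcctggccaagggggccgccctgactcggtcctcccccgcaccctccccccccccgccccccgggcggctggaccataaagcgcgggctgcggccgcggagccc
Thbs3, chr3:89214930-89215179, plus strand: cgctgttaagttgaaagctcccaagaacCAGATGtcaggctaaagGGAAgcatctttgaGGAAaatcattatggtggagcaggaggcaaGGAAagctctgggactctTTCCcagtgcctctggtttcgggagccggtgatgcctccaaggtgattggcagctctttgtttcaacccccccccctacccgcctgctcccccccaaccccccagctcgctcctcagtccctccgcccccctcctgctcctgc
Thbs2, chr17:14694263-14694512, minus strand: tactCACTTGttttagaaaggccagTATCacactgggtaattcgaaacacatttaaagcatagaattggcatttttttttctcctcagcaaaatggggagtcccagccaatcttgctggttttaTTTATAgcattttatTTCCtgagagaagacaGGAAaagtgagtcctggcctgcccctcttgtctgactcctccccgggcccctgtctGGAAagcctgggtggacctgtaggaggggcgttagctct

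The *Thbs4* stretch was the richest of these in G and C, at 70.8%, a value above that of 91.7% of 32851 promoters, and it held 19 CpG dinucleotides. *Thbs3* had 58.8% GC with 6 CpG, and *Thbs2* had 46.8% GC with 3 CpG. GGAA occurred at 7 places in *Thbs4*, 4 in *Thbs3* and 3 in *Thbs2*, and 93.4% of all promoters of this length held it at least once. Each of these promoters held 1 CANNTG, as did 66.2% of promoters. Of these members *Thbs2* alone held TATAAA (12.4% of promoters) and GATA (53.6%), each at 1 place, and none of these stretches held TGACGTCA (1.55%). A match of letters is a description and does not show a bound site. Gene models were alike in layout, with 22 exons each in *Thbs1* (chr2:118111876-118127133, plus strand), *Thbs2* (chr17:14665500-14694235, minus strand) and *Thbs4* (chr13:92751590-92794818, minus strand), 23 in *Thbs3* (chr3:89215180-89226837, plus strand) and 19 in *Comp* (chr8:70373558-70382066, plus strand).

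*Thbs4* was the family's leading transcript in WT ventricles, and *Thbs1* and *Thbs4* shared that place in mutant ventricles. Levels were compared between genes as CPM per kilobase of the longest coding transcript, with n = 4 samples per group. In WT the order was *Thbs4* (54.5 ± 2.92 CPM per kilobase, SD), *Thbs1* (15.1 ± 2.1), *Thbs3* (7.65 ± 0.676), *Thbs2* (0.279 ± 0.092) and *Comp* (0.06 ± 0.0405), and the sample ranges of neighbours in this order did not overlap. In mutant samples *Thbs1* stood at 24.5 ± 13.4 CPM per kilobase and *Thbs4* at 19.4 ± 4.09. Mutant replicates 1 to 4 were at 44.5, 17.5, 16.5 and 19.7 for *Thbs1* and at 15.0, 18.6, 24.9 and 19.2 for *Thbs4*. *Thbs1* was thus above *Thbs4* in mutant replicates 1 and 4 and below it in mutant replicates 2 and 3. Their ranges, 16.5 to 44.5 for *Thbs1* and 15.0 to 24.9 for *Thbs4*, overlapped, so that their order in mutant ventricles did not exceed the spread between samples. *Thbs3* (7.36 ± 0.742), *Thbs2* (0.314 ± 0.0725) and *Comp* (0.115 ± 0.0785) followed in the same order as in WT. Among 13004 coding genes tested, *Thbs4* exceeded 90.7% in WT and 72.7% in mutant samples, *Thbs1* exceeded 66.9% and 77.9%, and *Thbs3* exceeded 47.4% and 45.8%. The mutant place of *Thbs1* rests on a mean that mutant replicate 1 raised. *Thbs2* stood above 2.68% and 3.21%.

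*Thbs4* encodes the pentameric thrombospondin of tendon, heart and skeletal muscle matrix. It had 2337, 2390, 2242 and 2406 counts in WT replicates 1 to 4 and 564, 820, 1105 and 743 in mutant replicates 1 to 4. In CPM these were 178, 171, 184 and 163 in WT and 47.8, 59.4, 79.5 and 61.2 in mutant samples. Every mutant sample lay below every WT sample, as it did for 9.45% of 14449 genes compared, and the highest mutant value was under the lowest WT value by more than the range within either group. The mean was 174 ± 9.35 CPM in WT and 62.0 ± 13.1 in mutant samples (SD, n = 4 each), 2.81-fold lower in mutant samples (log2 fold change -1.49 ± 0.13 SE). Only 20 genes of the 14451 tested had a lower log2 fold change. Mutant samples also varied more among themselves, with a coefficient of variation of 21.1% against 5.37% in WT. The log2 fold change ranged from -1.63 to -1.38 over 17 other settings, and the value nearest to 0 came without mutant replicate 1 (-1.38 ± 0.0969 SE). In a bulk sample, fewer cells that express a gene and less RNA of it per cell cannot be told apart.

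**Figure D1:**
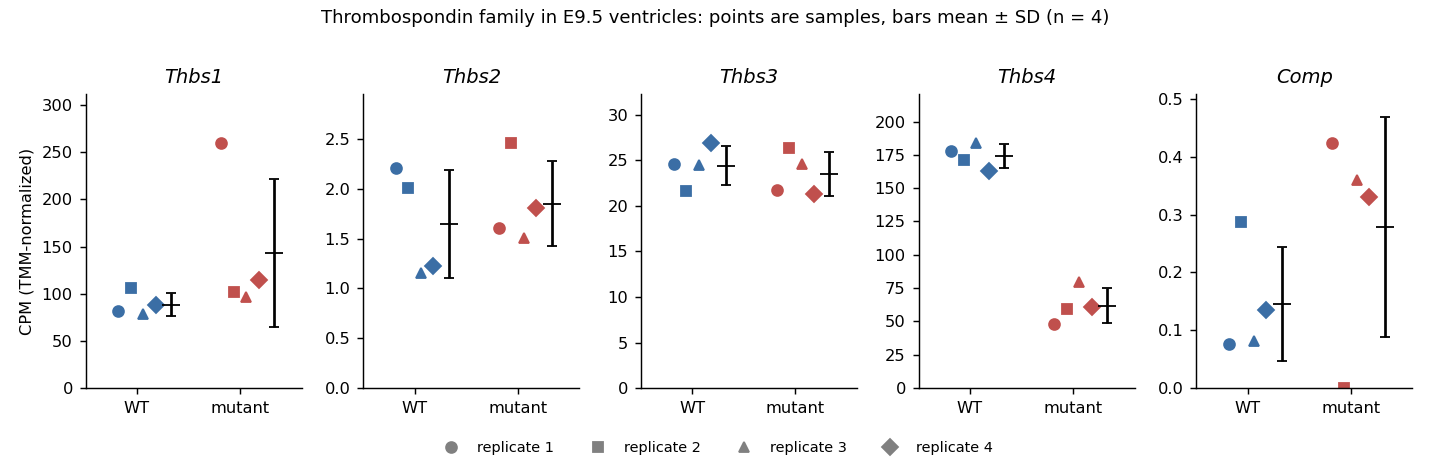
CPM of the 5 family genes in each of the 4 WT (blue) and 4 mutant (red) samples, 1 panel per gene with its own scale from 0, with the mean and SD in black and replicates by symbol. *Thbs4* separates the groups (163 to 184 CPM in WT, 47.8 to 79.5 in mutant samples). *Thbs1* stands far above all other samples in mutant replicate 1 (260 CPM). The other mutant samples are at 96.4 to 115 CPM and overlap the WT range of 78.5 to 106.

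*Thbs1* encodes the trimeric thrombospondin that platelets store and release, and that releases TGF-β from its latent complex. It had 1073, 1481, 955 and 1298 counts in WT replicates 1 to 4 and 3068, 1415, 1340 and 1399 in mutant replicates 1 to 4, or 82.0, 106, 78.5 and 87.7 CPM in WT and 260, 102, 96.4 and 115 CPM in mutant samples. Mutant replicate 1 was far above all other samples, and the remaining mutant samples overlapped the WT range. The mean was 88.6 ± 12.3 CPM in WT and 144 ± 78.1 in mutant samples, a fold of 1.62 with a 95% interval of 1.03 to 2.54. The difference did not pass the threshold (log2 fold change 0.695 ± 0.292 SE, unadjusted p = 0.039 and adjusted p = 0.175 by edgeR). Without mutant replicate 1 the log2 fold change was 0.24 ± 0.0992 SE (unadjusted p = 0.0355 and adjusted p = 0.128 by edgeR). Over the 17 other settings it ranged from 0.24 to 0.845 and its adjusted p from 0.116 to 0.327.

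*Thbs2*, the other trimeric member, which inhibits angiogenesis and shapes collagen fibrils, was scarce. It had 29, 28, 14 and 18 counts in WT replicates 1 to 4 and 19, 34, 21 and 22 in mutant replicates 1 to 4. At such counts counting error is a large part of the spread, and the groups overlapped. The mean was 1.65 ± 0.542 CPM in WT and 1.85 ± 0.427 in mutant samples (log2 fold change 0.168 ± 0.282 SE, adjusted p = 0.756, 95% interval -0.462 to 0.798). The interval spans a fall as well as a rise, so a change of moderate size in either direction was not detectable at this depth.

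*Thbs3*, a pentameric member found in developing bone, cartilage and heart, was at like levels in both groups. It had 322, 302, 298 and 398 counts in WT replicates 1 to 4 and 256, 363, 342 and 259 in mutant replicates 1 to 4, which is 24.4 ± 2.16 and 23.5 ± 2.37 CPM. The groups overlapped almost wholly. The log2 fold change was -0.0543 ± 0.0957 SE (adjusted p = 0.771), and the 95% interval of the fold ran from 0.831 to 1.12. With library factors set from cardiomyocyte genes the log2 fold change was 0.00458, so that no direction is given.

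*Comp*, the cartilage oligomeric matrix protein and the closest paralog of *Thbs4* by coding sequence, was at the edge of detection. It had 1, 4, 1 and 2 counts in WT replicates 1 to 4 and 5, 0, 5 and 4 in mutant replicates 1 to 4. A count of 0 allows up to 3 counts, which correspond to 0.203 to 0.254 CPM in these libraries. *Comp* did not pass the filter on low counts and was not tested with it, and without the filter its log2 fold change was 0.857 (adjusted p = 0.579). So 4 of the 5 members entered the fit, and of the 3 among them that were not picked for their values, *Thbs1*, *Thbs2* and *Thbs3*, 0 passed by edgeR, beside 8.62% of all genes tested. An unadjusted p under 0.05 was found for 1 of them, *Thbs1*, and for 3609 of the 14451 genes tested.

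**Figure D2:**
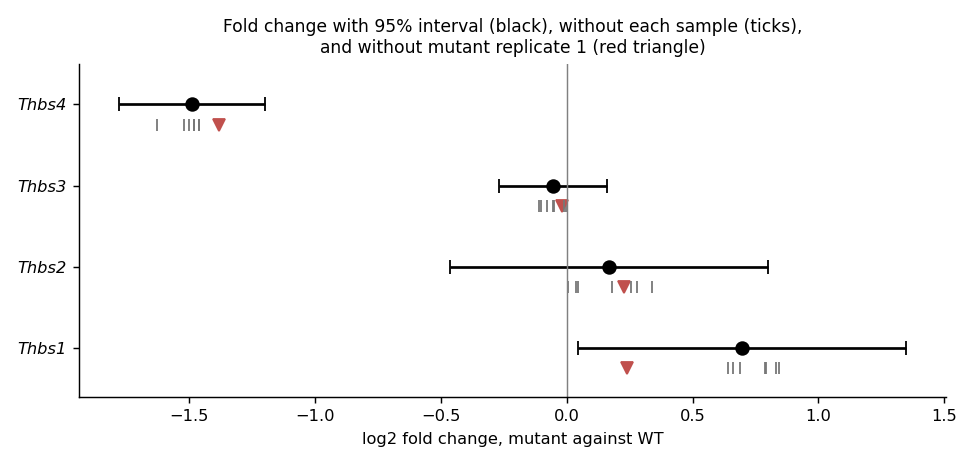
Log2 fold change in mutant against WT samples of the 4 members in the fit, with 95% interval in black. Grey ticks give the same value when each sample is left out, and the red triangle that without mutant replicate 1. *Thbs4* was picked for its fall, so its interval is a description and not a test. *Thbs4* lies at -1.49 and stays between -1.63 and -1.38. *Thbs3* and *Thbs2* have intervals that include 0, and *Thbs1* moves from 0.695 to 0.24 without mutant replicate 1.

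The make-up of the family pool differed accordingly. Summed over the 5 genes, the level was 77.6 ± 2.04 CPM per kilobase in WT (74.6 to 78.9) and 51.7 ± 10.2 in mutant samples (44.7 to 66.7). In plain CPM, where the long *Thbs1* transcript weighs more, the sum overlapped, at 279 to 301 in WT and 332, 191, 202 and 200 in mutant replicates 1 to 4. Per length, *Thbs4* supplied 70.1% ± 2.55 of the pool in WT, and 22.4%, 41.5%, 50.3% and 41.6% in mutant replicates 1 to 4. *Thbs1* supplied 19.5% ± 2.65 in WT and 45.5% ± 14.7 in mutant samples, with 66.7% in mutant replicate 1 and 33.3% to 42.9% in the others. The ratio of *Thbs4* to *Thbs1* per length was 2.95 to 4.29 in WT and 0.336, 1.06, 1.51 and 0.971 in mutant replicates 1 to 4, with no overlap. *Thbs3* took 9.88% ± 1.11 in WT and 14.7% ± 3.41 in mutant samples, although its own level hardly differed. These shares follow in part from the choice of *Thbs4* and are not a separate result.

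**Figure D3:**
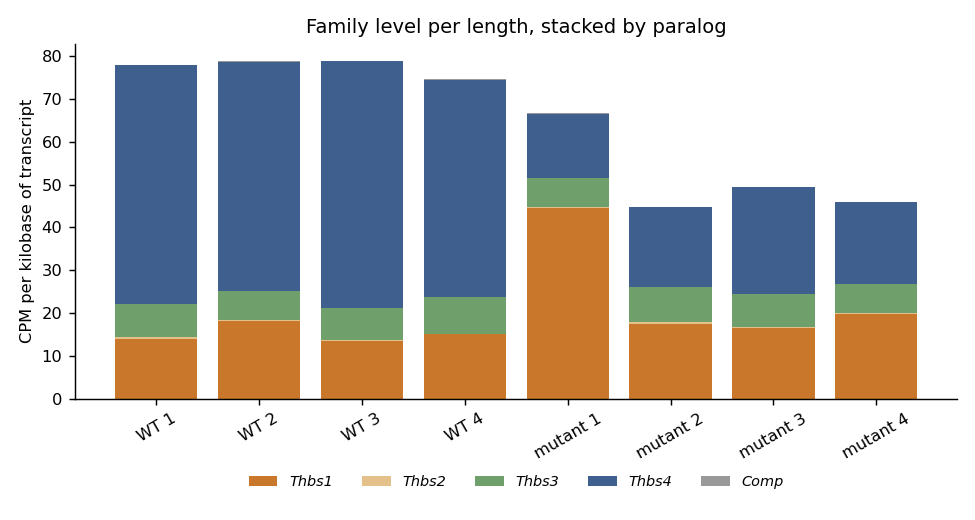
Family level in CPM per kilobase of transcript in each sample, stacked by gene. The stack is 74.6 to 78.9 high in WT, mostly *Thbs4*, and 44.7 to 66.7 in mutant samples, where the *Thbs1* part is widest in mutant replicate 1.

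The genes next to the members were examined because neighbours can share regulatory sequence. Of the coding genes beside *Thbs4*, *Serinc5* (a serine incorporator, 39642 bases away) had 489, 548, 469 and 519 counts in WT replicates 1 to 4 and 727, 657, 670 and 539 in mutant replicates 1 to 4. It was higher in mutant samples (log2 fold change 0.425 ± 0.0988 SE, adjusted p = 0.0286), opposite in direction to *Thbs4*. That call was lost in 7 of the 17 other settings, where adjusted p reached 0.11, among them the fit with the replicate number as a block (adjusted p = 0.0519). On the other side *Mtx3*, which encodes a mitochondrial outer membrane protein and lies 49941 bases away, did not pass (-0.117 ± 0.0835 SE, adjusted p = 0.426). *Mtx1*, which overlaps *Thbs3* by 318 exon bases on the opposite strand, was at 0.164 ± 0.0991 SE (adjusted p = 0.343). *Smoc2*, a matricellular gene 260709 bases from *Thbs2*, had a log2 fold change of 1.21 ± 0.595 SE and did not pass (adjusted p = 0.242). *Crtc1*, 288 bases from *Comp*, was at 0.198 (adjusted p = 0.31), and *Upf1* on the other side at 0.0575 (adjusted p = 0.621). The coding neighbours of *Thbs1* (*Rasgrp1* and *Fsip1*) and the further neighbours *Wdr27* and *Muc1* had too few counts to be tested, and *Gm29233*, antisense to *Thbs1*, had 0 counts in every sample.

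Cell-surface receptors of thrombospondins came next. Of 14 receptor genes tested 0 were higher and 2 lower in mutant samples (4 lower without mutant replicate 1, with *Calr* and *Itgb1* added), with a median log2 fold change of 0.0564 beside -0.00131 over all genes tested. This count over all samples, and those of the lists that follow, are read against the 3.5% of all genes tested that were called lower and the 5.11% called higher. Without mutant replicate 1 the calls over all genes went from 739 to 1352 higher and from 506 to 1169 lower. List counts without that sample therefore stand beside a larger share. *Itga6*, the laminin-binding integrin α6 that also binds thrombospondins, had 421, 404, 484 and 397 CPM in WT replicates 1 to 4 and 211, 254, 243 and 201 in mutant replicates 1 to 4. The groups did not overlap, and the fall was 0.907 on the log2 scale (log2 fold change -0.907 ± 0.0909 SE, adjusted p = 0.00152), kept in 17 of 17 other settings. *Itgav*, the integrin αv that binds the RGD motif, had 85.7 to 102 CPM in WT and 61.9 to 78.1 in mutant samples and fell as well (-0.436 ± 0.0824 SE, adjusted p = 0.012), except with library factors from cardiomyocyte genes (-0.359, adjusted p = 0.164, where the 17 settings ran from 7.99e-05 to 0.164). Its partner chain *Itgb3* was at 58.6 to 72.1 CPM in mutant replicates 2 to 4 and at 137 in mutant replicate 1, against 49.0 to 61.7 in WT, and did not pass (0.584 ± 0.237 SE, adjusted p = 0.161). *Cd36* and *Cd47*, which bind the type 1 repeats and the carboxy terminus of THBS1, did not pass either (0.347 and 0.131, adjusted p = 0.142 and 0.71). *Calr*, calreticulin, the most abundant gene of the list, was at 1056 ± 35.9 CPM in WT and 909 ± 81.1 in mutant samples. It did not pass by edgeR over all samples (-0.216 ± 0.0659 SE, adjusted p = 0.073). Over all samples it passed with DESeq2 (-0.211, adjusted p = 0.0308) and with upper-quartile factors (-0.235, adjusted p = 0.046). It also passed without mutant replicate 1 (-0.281 ± 0.0403 SE, adjusted p = 0.00166).

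Of the matrix proteins and proteases that bind or cleave thrombospondins, 17 of 20 were tested. By edgeR over all samples 0 were higher and 1 lower, near the 3.5% called lower over all genes, with a median log2 fold change of -0.0128. Without mutant replicate 1, 2 were lower, with *Col12a1* added. By DESeq2 over all samples 1 was higher and 2 were lower. *Vcan*, which encodes the proteoglycan versican of the cardiac jelly, had 1188, 1143, 1146 and 1049 CPM in WT replicates 1 to 4 and 875, 723, 756 and 691 in mutant replicates 1 to 4. It fell without overlap (-0.572 ± 0.0764 SE, adjusted p = 0.00279), and the call was lost with library factors from cardiomyocyte genes (-0.491, adjusted p = 0.0753, where the 17 settings ran from 1.23e-09 to 0.0753). *Fn1*, fibronectin, the most abundant of them, was at 1825 ± 60.6 CPM in WT and 1809 ± 196 in mutant samples (-0.0128 ± 0.0747 SE, adjusted p = 0.939).

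In the TGF-β list, the growth factor system that THBS1 acts on, 11 genes were tested. By edgeR over all samples 0 were higher and 3 lower (median log2 fold change -0.11). DESeq2 called 5, of which 2 were higher. The ligand *Tgfb2* fell from 92.6 ± 3.69 CPM to 70.1 ± 4.42 (-0.402 ± 0.0629 SE, adjusted p = 0.00479) in all 17 other settings as well. The type I receptor *Tgfbr1* (-0.338 ± 0.0579 SE, adjusted p = 0.00742) and the co-receptor *Tgfbr3* (-0.391 ± 0.0632 SE, adjusted p = 0.00562) fell too. With library factors from cardiomyocyte genes they no longer passed (-0.275 and -0.319, adjusted p = 0.0769 and 0.131, the highest over the 17 settings, whose lowest were 7.93e-06 and 2.17e-06). *Ltbp1*, which tethers latent TGF-β to the matrix, did not pass (-0.14, adjusted p = 0.202). *Ccn2*, a TGF-β target chosen after its values were seen, had 37.7 to 41.0 CPM in WT and 257, 78.4, 58.9 and 60.0 CPM in mutant replicates 1 to 4. It missed the threshold by edgeR over all samples (1.52 ± 0.442 SE, adjusted p = 0.0627) and passed without mutant replicate 1 (0.737 ± 0.0928 SE, adjusted p = 0.000893).

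Other proteins with type 1 thrombospondin repeats were tested for 41 of 53 genes. Of these 0 were higher and 3 lower by edgeR over all samples, and 5 were called by DESeq2. The median log2 fold change was -0.0482. Over all genes 3.5% were called lower and 8.62% in either direction, so the count says little about these genes as a group. *Rspo3*, an amplifier of WNT signalling, fell from 33.3 ± 1.84 to 18.1 ± 4.39 CPM (-0.877 ± 0.149 SE, adjusted p = 0.00729). *Adamtsl2*, a regulator of microfibrils, fell from 15.4 ± 1.79 to 9.3 ± 1.09 CPM (-0.73 ± 0.125 SE, adjusted p = 0.00739), and *Spon1*, F-spondin, from 250 ± 9.68 to 162 ± 20.7 CPM (-0.622 ± 0.086 SE, adjusted p = 0.00312). These 3 calls held in 17 of 17 other settings. *Unc5b*, a netrin receptor and the most abundant gene of the list, was at 215 ± 11.7 and 214 ± 19.3 CPM (adjusted p = 0.95). Without mutant replicate 1, *Spon2* (0.537), *Rspo1* (1.35) and *Ccn2* (0.737) were also higher.

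THBS4 is known to act in the endoplasmic reticulum stress response, and 14 genes of that response were tested. *Atf4*, a transcription factor of the integrated stress response, was the only gene called by edgeR over all samples. It was higher in mutant samples (164 ± 8.92 CPM in WT, 259 ± 73.9 in mutant, 0.659 ± 0.161 SE, adjusted p = 0.0342). That call held in 9 of 17 other settings, with adjusted p up to 0.102. DESeq2 and upper-quartile factors each gave 2 calls in the list, and *Calr* passed in both (adjusted p = 0.0308 and 0.046). The median log2 fold change of the list was 0.0677. The calls in this list depended on mutant replicate 1. Without it *Atf4* remained higher (0.442 ± 0.0648 SE, adjusted p = 0.00189) and 6 genes, among them the chaperones *Hspa5*, *Hsp90b1*, *Calr* and *Creld2*, fell. *Hsp90b1* turned from 0.0814 ± 0.177 SE (adjusted p = 0.821) to -0.179 ± 0.0415 SE (adjusted p = 0.0164). The 3 metaxin genes, mitochondrial genes of which *Mtx1* and *Mtx3* neighbour *Thbs3* and *Thbs4* and *Mtx2* is the most abundant (-0.0447, adjusted p = 0.75), gave 0 calls over all samples by edgeR, and without mutant replicate 1 *Mtx1* was higher (0.256 ± 0.0578 SE, adjusted p = 0.0147).

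**Figure D4:**
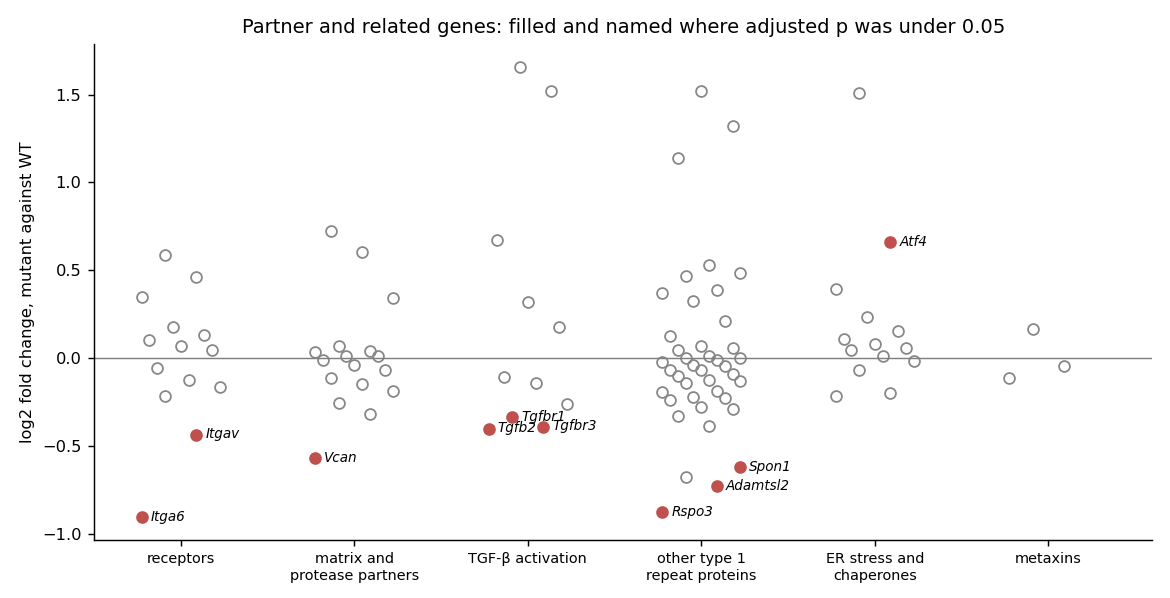
Log2 fold change in mutant against WT samples of each tested gene in 6 lists of thrombospondin partners and relatives. Filled points with names had an adjusted p under 0.05: 9 different genes lie below 0, from *Itga6* at -0.907 to *Tgfbr1* at -0.338, and *Atf4* lies above 0 at 0.659.

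Markers of several cell types differed between the groups, and their part in the *Thbs4* and *Thbs1* differences was not tested. All 11 erythroid markers were higher in mutant samples (median log2 fold change 2.44), with a summed level of 6702 to 8104 CPM in WT and 19860 to 68758 in mutant samples. *Hba-a2* (2.77) and *Hba-x* (2.69) rose most, and *Hbb-y* was the most abundant (2.45). Of 10 cardiomyocyte markers 0 were called by edgeR over all samples and 2 were called lower by DESeq2. Their median log2 fold change was -0.0511 (the most abundant, *Myh7*, was at 0.0898, adjusted p = 0.694). Without mutant replicate 1, *Actc1* and *Nkx2-5* were higher, at 0.162 and 0.222, and *Ttn* lower, at -0.23. With library factors set from this list the log2 fold change of *Thbs4* was -1.44 ± 0.11 SE. Of 10 endothelial and endocardial markers 1, the Tie2 gene *Tek*, was lower (-0.339 ± 0.0808 SE, adjusted p = 0.0311), a call that held in 9 of 17 other settings, with adjusted p up to 0.107. *Kdr* was lower as well without mutant replicate 1 (-0.51, adjusted p = 0.00155). *Cdh5*, the most abundant of them, was at -0.137 (adjusted p = 0.169), and their summed level was 952 to 1038 CPM in WT and 843 to 908 in mutant samples. Of 7 cushion mesenchyme markers 0 were called by edgeR over all samples. Other fits over all samples called 2 (DESeq2), 1 (limma and voom) and 2 (no filter on low counts). Without mutant replicate 1, 2 were lower, *Msx1* (-0.467) and *Msx2* (-0.503). The summed level was 151 to 168 CPM in WT and 108 to 147 in mutant samples. *Pdgfra*, the most abundant, was at -0.153 (adjusted p = 0.557). Of 6 trabecular markers 4 were lower, *Slit2* (-1.72) and *Irx3* (-1.43) in all 17 other settings, *Bmp10* (-0.573) in 12 of them with adjusted p up to 0.14, and *Etv1* (-0.615) in 8 with adjusted p up to 0.198. Each of these 4 was lower in every mutant sample than in every WT sample, as were 9.45% of all genes compared, and 3.5% of all genes tested were called lower. The sum over the list is mostly *Nppa*, at 965 ± 117 CPM in WT and 1088 ± 131 in mutant samples (0.174, adjusted p = 0.329), and it overlapped (1103 to 1447 CPM in WT, 1176 to 1438 in mutant samples). Of 8 epicardial markers 2, *Wt1* and *Tbx18*, were higher (140 to 217 CPM summed in WT, 219 to 363 in mutant samples). The call of *Wt1* held in 17 of 17 other settings and that of *Tbx18* in 12, with adjusted p up to 0.0979. *Upk3b*, the most abundant, did not pass (0.771, adjusted p = 0.192), and *Tcf21* passed when mutant replicate 1 was left out (0.761, adjusted p = 0.0358). Of 5 outflow tract and second heart field markers 3, *Fgf10*, *Sema3c* and *Rspo3*, were lower (99.5 to 114 CPM in WT, 63.8 to 80.7 in mutant samples), and *Fgf10* lost its call in 3 of the 17 settings (adjusted p up to 0.0551). Of the tendon and cartilage markers, tissues where *Thbs4* and *Comp* are abundant later in life, 4 of 7 were tested and 0 called (850 to 922 CPM in WT, 659 to 1134 in mutant samples). That sum is mostly *Col2a1*, a cartilage collagen that other embryonic tissues also express, at 862 ± 30.6 CPM in WT and 886 ± 195 in mutant samples (0.0398, adjusted p = 0.89). The tendon marker *Tnmd* had at most 1 count in any sample and the cartilage marker *Matn1* at most 2.

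*Thbs1* is a product of platelets and an immediate early gene, and lists for these were set beside it. Of 10 megakaryocyte and platelet markers tested 2 were higher, *Itga2b* (1.15 ± 0.307 SE, adjusted p = 0.0477) and *Gp9* (1.57 ± 0.389 SE, adjusted p = 0.0357), each called in 8 of 17 other settings, with adjusted p up to 0.139 and 0.113. When mutant replicate 1 was left out they were at 0.689 ± 0.117 SE and 1.15 ± 0.296 SE (adjusted p = 0.00385 and 0.0251), and *Gp1ba* passed as well. *Selp*, the P-selectin gene and the 1 marker of this list not tested, had at most 2 counts. The list's summed level was 36.9 to 58.2 CPM in WT, 63.2 to 73.4 in mutant replicates 2 to 4 and 198 in mutant replicate 1. Summed immediate early genes were at 163 to 179 CPM in WT, 184 to 192 in mutant replicates 2 to 4 and 292 in mutant replicate 1, with *Dusp1*, a MAP kinase phosphatase, called higher (0.57 ± 0.0931 SE, adjusted p = 0.0059). Leaving out mutant replicate 1 added *Junb* as higher (0.576) and *Egr1* as lower (-0.904), and *Jun*, the most abundant, did not pass over all samples (0.209, adjusted p = 0.217). Hypoxia and metal response genes were at 5025 to 5268 CPM in mutant replicates 2 to 4 and at 8044 in mutant replicate 1, with *Mt1* (3.66 ± 0.771 SE), *Mt2* (3.86 ± 0.919 SE) and *Slc2a1* (0.542 ± 0.105 SE) called higher. These calls held in 13, 10 and 14 of the 17 other settings (adjusted p up to 0.0715, 0.114 and 0.0678), and all 3 were lost without WT replicate 1 and without WT replicate 4. Leaving out mutant replicate 1 gave log2 fold changes of 2.17 for *Mt1*, 2.04 for *Mt2* and 0.425 for *Slc2a1*, all called, with *Egln3* called as well (0.669, adjusted p = 0.0479). *Ldha*, the most abundant gene of the list, was at 0.0503 (adjusted p = 0.638). *Mt1*, a metallothionein, had 894 CPM in mutant replicate 1 and 71.2, 133 and 121 in mutant replicates 2 to 4, against 18.4 to 28.4 in WT. Of 9 macrophage markers 2 were tested and *Csf1r* was higher (1.08 ± 0.18 SE, adjusted p = 0.00657). *Thbs1* was thus highest in the library in which each of these summed lists was highest, and their part in its level was not tested.

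**Figure D5:**
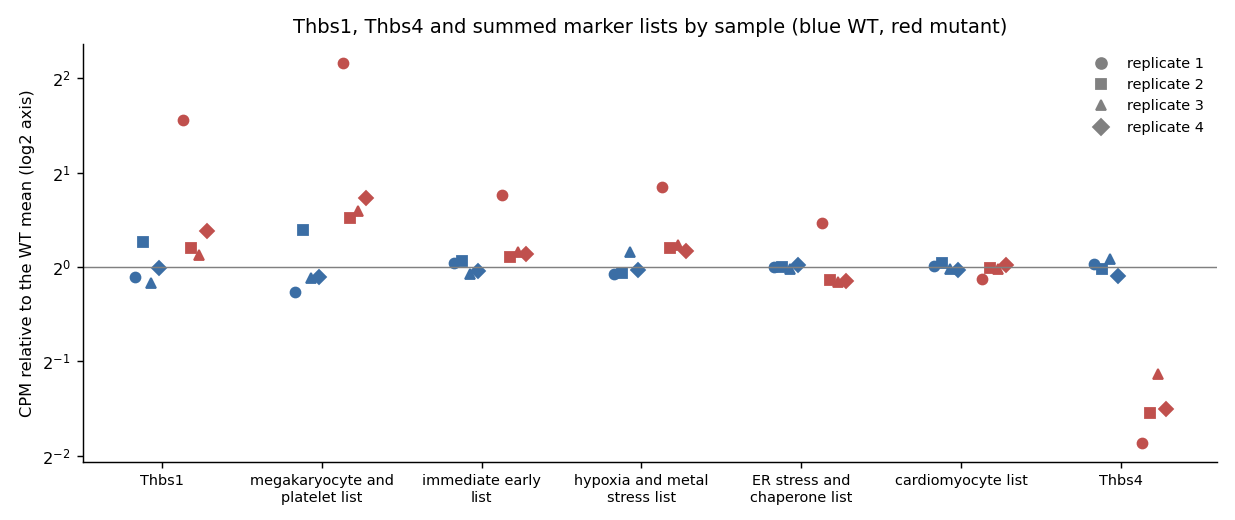
CPM of *Thbs1*, *Thbs4* and summed gene lists in each sample, relative to the WT mean of each, on a log2 axis (blue WT, red mutant, replicates by symbol). Mutant replicate 1 (circle) is the highest point for *Thbs1* and for the megakaryocyte, immediate early, hypoxia and chaperone lists, and the lowest for the cardiomyocyte list and for *Thbs4*.

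The genes whose profile over the 8 samples was most like that of *Thbs4* were found by the root mean square distance between log2 CPM profiles, each centred on its own mean. Of 14448 genes compared, with a median distance of 0.789, the nearest were *Cck* (cholecystokinin, 0.165), *Cdo1* (cysteine dioxygenase, 0.169), *Sorcs2* (a sortilin-related receptor, 0.183), *Alox8* (a lipoxygenase, 0.199) and *Gm826* (0.199). Their log2 fold changes were -1.54, -1.62, -1.38, -1.68 and -1.38. *Cdo1* was at 22.1 ± 0.674 CPM in WT and 7.18 ± 0.786 in mutant samples, and *Cck* at 18.1 ± 3.16 and 6.16 ± 1.75. Likeness of profile here is a description over 8 samples that share the same groups.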

How the data were processed

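The deposited table holds expected counts per gene, which the authors made with RSEM 1.3.1 after cutadapt, on mouse build GRCm38 per the labels, from 60-base single reads. RSEM shares reads that match several genes and scales for neither depth nor length. The aligner and the use of strand are not given in the sources used here. Expected counts were rounded to whole numbers, and 53274 of 53465 gene identifiers were given a symbol from a table of gene names.

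Mutant and WT samples (n = 4 each) were compared in R 4.3.3 by edgeR 4.0.16 and its quasi-likelihood test. Libraries were scaled by TMM, filterByExpr kept 14451 genes, and p-values were adjusted by Benjamini-Hochberg over these at a threshold of 0.05. CPM are TMM-normalized. A standard error (SE) is the absolute log2 fold change over the root of F. Intervals cover 95%. Per-length levels divide CPM by the longest protein-coding transcript in GENCODE M21. Coding sequences were read from that annotation's transcripts and promoters from the RefSeq promoter table, with Python 3.11.15 and biopython 1.88. The members and gene lists were chosen with earlier results of these data known. Named genes were the 5 members, their coding neighbours, each list's called genes (2 largest rises and 2 largest falls where over 4 were called) and its most abundant tested gene, the 5 profiles nearest *Thbs4* (log2 of CPM + 0.5) and *Nrg1*. A few others were named after their values were seen (*Ccn2*, *Itgb3*, *Cd36*, *Cd47*, *Hspa5*, *Creld2*, *Tnmd*, *Matn1*, *Selp*, *Mtx1* among the metaxins, and genes given as called without mutant replicate 1).

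The fit was repeated with DESeq2 1.42.0, with limma 3.58.1 and voom, with size factors of DESeq2, upper-quartile factors, factors from cardiomyocyte genes, removal of hemoglobin and mitochondrial genes, 2 other filters, the replicate number as a block, and each sample left out. The fit was tested on simulated data. Replicates of a group were not duplicates (their smallest chi-square per degree of freedom was 3.77) and each counted once. Protein sequences were not analysed here. The result for 1 further neighbouring gene is not reported here.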

Additional observations from a re-analysis of the deposited data

Results flagged for a closer look

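Levels of the members and summed lists were searched for samples that stood apart from the other 3 of their group, by Dixon's criterion for 4 samples, in which the distance from an extreme sample to its neighbour is divided by the whole range. About 1 in 20 groups passes by chance, and 8 of 50 groups passed. Mutant replicate 1 was the high sample in 7 of the 8. For *Thbs1* the share was 0.884 (260 CPM against 96.4 to 115). For the summed TGF-β list it was 0.869 (803 CPM against 552 to 585), for the endoplasmic reticulum list 0.973 (6326 against 4112 to 4172), and for the megakaryocyte list 0.924 (198 against 63.2 to 73.4). The macrophage list had 0.938 (14.2 against 9.56 to 9.85), the immediate early list 0.926 (292 against 184 to 192), and the hypoxia and metal list 0.92 (8044 against 5025 to 5268). In WT, replicate 3 was high for the hypoxia and metal list alone, with a share of 0.839 (4989 against 4258 to 4376). The lists share genes in part, so these passes are not separate from each other. *Thbs4*, *Thbs2*, *Thbs3* and *Comp* had no such sample in either group.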

How the results depend on the processing

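Of the members, *Thbs1* and *Thbs2* kept their direction and did not pass the threshold in any of the 17 other settings, and *Thbs4*, which is described without a test, ranged from -1.63 to -1.38. *Thbs3* turned to 0.00458 with factors from cardiomyocyte genes, which moved the median log2 fold change of all genes to 0.0638. Counts of called genes moved more. Factors from cardiomyocyte genes gave 576 calls (414 higher, 162 lower). The replicate number as a block gave 619 (399 higher, 220 lower). Correlations of same-numbered deviations ran from -0.0911 to 0.0187, and those of differently numbered samples from -0.0748 to 0.0636. The labels do not say whether the numbers pair the samples, and these correlations cannot settle it. The block thus stands for a shared number only. Leaving out each sample gave 509 to 2521 calls, 335 to 1352 higher and 174 to 1169 lower, the most without mutant replicate 1. Calls in the partner lists, 10 in all, were 16 with DESeq2, 5 with cardiomyocyte factors and 9 to 22 with each sample left out (22 without mutant replicate 1). Among named genes that had not passed over all samples, signs turned with cardiomyocyte factors for *Fn1* (0.0565), *Unc5b* (0.0474) and *Mtx2* (0.013). Leaving out each sample gave values on both sides of 0 for *Fn1* (-0.0734 to 0.0399), *Unc5b* (-0.0436 to 0.0519), *Hsp90b1* (-0.179 to 0.17), *Mtx2* (-0.0771 to 0.0171), *Myh7* (-0.0222 to 0.187) and *Col2a1* (-0.0863 to 0.171). The cause was not tested. Depth limits *Comp* and *Thbs2*, whose counts do not exceed 5 and 34.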
